A study of Drosophila melanogaster with 2 samples.

Results

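The regions described are the second tier of binding sites of the Jing protein in Drosophila melanogaster embryos, the peaks that ranked just below the cut-off of the authors' thresholded list. They were chosen by the authors' signal value in the peak list of the pooled reads. The thresholded list holds the strongest pooled peaks, and the next ranks, as many as that list is long, were taken. A peak was dropped when its summit lay within 1000 bp of a thresholded summit. Of these ranks, 250 (9.64%) were dropped, and 2343 regions remained, 7.81% of the 30000 peaks in the pooled list. Binding was measured by ChIP-seq, in which chromatin fragments carrying the protein are precipitated and sequenced, here with an antibody against GFP, on whole embryos aged 0 to 16 h, males and females pooled. All embryos came from the transgenic line jing-GFP, which stably expresses Jing with eGFP fused to its C terminus, and the labels also name an insertion targeting jing. The series has 1 group, with 2 biological replicates that the labels number 2 and 3, and holds no comparison between groups. A whole embryo mixes all tissues and many stages, and a weak peak in few cells cannot be told apart from weak occupancy in many. The depth of the libraries is unknown, and intervals given below are 95% intervals that cover counting error and treat neighbouring peaks as independent.

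Jing is a zinc finger transcription factor of the AEBP2 family, whose members associate with Polycomb repressive complexes, and it is known in the fly for roles in the tracheae, the midline of the central nervous system, glia and the wing. Transcription factors typically occupy promoters, the stretches of DNA where transcription starts, and enhancers, which lie in introns or between genes. In ChIP-seq, the irreproducible discovery rate (IDR) step compares how peaks rank in replicates and keeps the strongest part of the list, so the peaks below its cut-off hold weak binding sites and background together.

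To show what these regions look like, 7 stretches of 100 bp centred on member summits follow, read from the plus strand of the Release 6 (dm6) RefSeq assembly. They are examples of members with each consensus sequence that was found more often at summits than beside them. All lie outside untranslated regions. The choice was filtered, so they need not be the strongest members with their sequence. The first 4 hold TATCGATA, the DNA replication-related element (DRE), a core promoter sequence bound by the factor Dref. They lie at chrX:7277171-7277270 in an intron near CG1677, at chrX:8205990-8206089 in an intron of the polarity gene sdt (stardust), at chr3R:25685053-25685152 at the promoter of the ribosomal protein gene RpL27, and at chrX:15085972-15086071 at the promoter of Dbct. The fifth, at chrX:14634830-14634929 in an intron of the axon guidance gene NetA (Netrin-A), holds the sequence WGATAR of GATA factors, where W is A or T and R is A or G. The sixth, at chr2L:3896996-3897095 in an intron near the formin gene capu (cappuccino), holds the TATA box TATAWAAR. The last, at chrX:17595931-17596030 near X11L, holds the A tract AAAAAA. Capitals mark the match, which on the plus strand may be the reverse complement.
CG1677: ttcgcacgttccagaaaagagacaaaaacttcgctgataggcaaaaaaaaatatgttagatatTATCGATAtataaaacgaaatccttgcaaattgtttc
sdt: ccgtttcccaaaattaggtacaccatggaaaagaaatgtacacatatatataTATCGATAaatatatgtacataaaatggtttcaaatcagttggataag
RpL27: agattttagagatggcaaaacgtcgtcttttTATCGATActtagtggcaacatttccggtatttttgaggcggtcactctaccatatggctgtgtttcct
Dbct: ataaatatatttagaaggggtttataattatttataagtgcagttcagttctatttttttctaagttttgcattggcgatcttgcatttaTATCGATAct
NetA: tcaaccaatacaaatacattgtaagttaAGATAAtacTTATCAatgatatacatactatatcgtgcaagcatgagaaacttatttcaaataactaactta
capu: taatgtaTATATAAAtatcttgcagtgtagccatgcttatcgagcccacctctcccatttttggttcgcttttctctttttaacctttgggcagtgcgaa
X11L: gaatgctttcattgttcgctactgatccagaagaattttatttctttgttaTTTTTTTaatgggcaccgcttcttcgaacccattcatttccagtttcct

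The edges of the second tier did not separate it from its neighbours. The signal, whose scale is not given, ran from 66.0 to 106 among the members with a median of 79.1, against 106 to 2208 in the thresholded list and 53.5 to 66.0 in the third tier. The third tier is the 2414 peaks that the same distance rule left from the same number of ranks further down. At the upper edge, the last thresholded peak had a signal of 106.21, in an intron near CG43658. The first member had 106.2, at the promoter of Awh (Arrowhead), which encodes a LIM homeodomain factor. At the lower edge, the last member lay in a coding exon near CG43938 with 66.031, and the next peak near CG6040 had 66.029. The 5 peaks on either side ran from 106.33 down to 106.03 at the upper edge and from 66.058 down to 65.985 at the lower edge. The −log10 q-value of the authors' peak caller ran from 0.678 to 2.01 among the members with a median of 1.05. It reached at least 1 in 1287 members (54.9%) and at least 2 in 14. Every member was 364 bp wide with its summit at the centre, so a summit here is the middle of a fixed window.

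Most members had a peak in each replicate, but rarely a strong one in both. A summit within 100 bp was found in both replicates for 1909 of the 2343 members (81.5%, Wilson interval 79.9 to 83.0). The share was 94.1% in the thresholded list, 64.9% in the third tier and 33.2% of all pooled peaks. These shares rest on the reads that also set the pooled ranks, so they describe the tiers and test nothing. A further 225 members had a summit in replicate 2 only, 197 in replicate 3 only and 12 in neither. The match distance mattered: the share with a summit in both replicates was 59.2% at 50 bp and 92.7% at 200 bp.

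No member ranked above the cut-off in both replicates, which the rule nearly fixes. The pooled ranks rest on the same reads, and a peak strong in both replicates is nearly always in the thresholded list. Of all pooled peaks 1800 ranked above the cut-off in both, and 1798 thresholded peaks did. The counts below thus describe the tiers and test nothing. The median rank was 4592 in replicate 2, over 2134 members with a summit there, and 4041 in replicate 3, over 2106. Of the members, 238 (10.2%) ranked above the cut-off in replicate 2, that is, among as many of its strongest peaks as the thresholded list holds. In replicate 3, 223 (9.52%) did, and in both 0 did, where a member with no summit in a replicate has no rank there. With the limit set at the lowest rank of the second tier, 625 members (26.7%, 24.9 to 28.5) ranked above it in both replicates, against 91.1% of the thresholded list and 0.207% of the third tier. This share was 47.9% in the stronger part of the ranks and 5.46% in the weaker part, split at the middle rank.

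**Figure D1:**
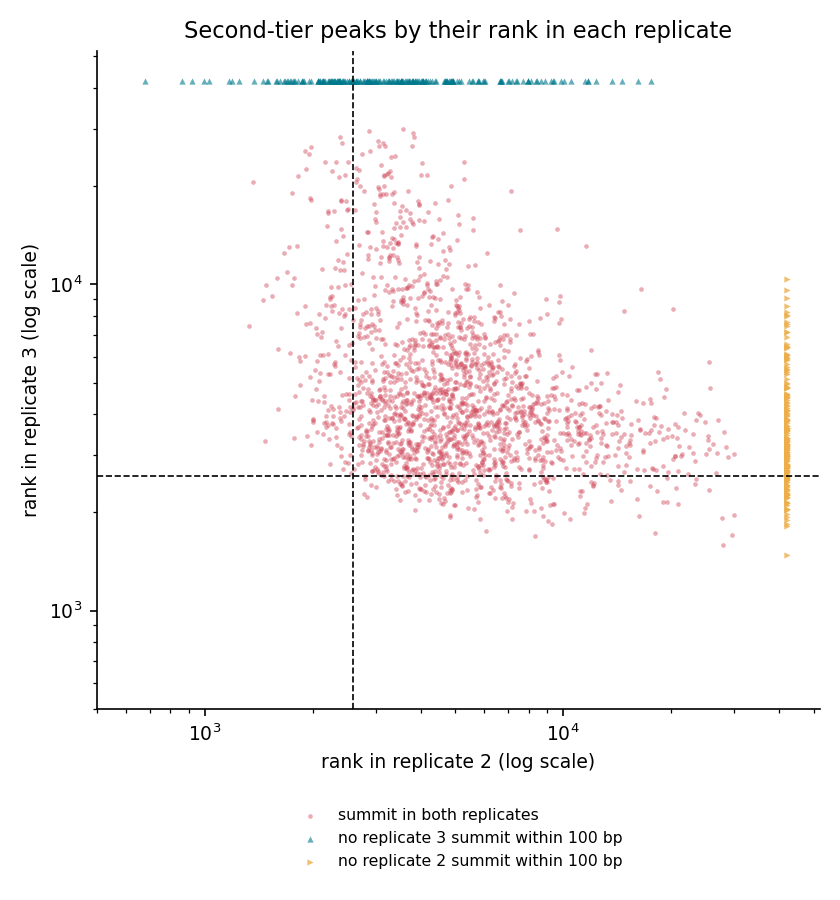
Each point is a second-tier peak, by its rank in replicate 2 and in replicate 3 (log scales), with dashed lines at the rank of the cut-off. Triangles at the edges are the 225 members with no replicate 3 summit within 100 bp and the 197 with no replicate 2 summit, and no point lies below both lines. The pooled ranks rest on the same reads, so the rule nearly fixes that last trait.

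Positions of promoter summits are given in bp from the start site, negative upstream. The 15 strongest members were 9 intronic, 5 promoter and 1 intergenic peak, all with a pooled signal of 106 after rounding. Awh ranked 1898 in replicate 2 and 6027 in replicate 3, with its summit at 79, in the peak chr3L:3846103-3846466. Trim9, a ubiquitin ligase of axon guidance, ranked 1905 and 8609 with a summit at 60. An intron of cic (capicua), a repressor relieved by receptor tyrosine kinase signalling, ranked 2045 and 4760. In these 3 the rank was better in replicate 2. The order was the opposite at Polr2F, a subunit of RNA polymerases, which ranked 4844 in replicate 2 and 1957 in replicate 3 with its summit at −66. The intronic peak of NetA ranked 3142 and 2661, close to the cut-off in both. The intronic peak near capu had no replicate 2 summit within 100 bp and ranked 2432 in replicate 3, and that near CG7987 ranked 2335 in replicate 2 with no replicate 3 summit. Over all members, 1084 (46.3%) ranked better in replicate 2, counting those with a summit in replicate 2 only.

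Among members with a summit in only 1 replicate, 4 of the 5 strongest in replicate 2 lay at promoters. At ey (eyeless), a Pax6 gene of eye formation, the peak at −180 ranked 680 in replicate 2, and the nearest replicate 3 summit was 182 bp away at rank 13779. At pk (prickle), a planar polarity gene, the peak ranked 864, and the nearest replicate 3 summit was 860 bp away. The peaks at vn (vein), which encodes a ligand of the EGF receptor, and at jvl (javelin-like) ranked 920 and 992, with replicate 3 summits 165 and 155 bp away at ranks 21400 and 24614. The intronic peak of sens-2, a zinc finger gene, ranked 1026. In replicate 3 the strongest such member, at −256 from a start of the Sox factor gene Sox102F, ranked 1476, with a replicate 2 summit 117 bp away at rank 7446. The next were intergenic peaks near lncRNA:CR45303 and lncRNA:CR45297 at ranks 1814 and 1836. An intron near inaE, which encodes a diacylglycerol lipase, ranked 1889, and the promoter of Hacl ranked 1938. A summit of the other replicate lay within 364 bp, the width of a peak, for 142 of the 225 members seen in replicate 2 only and 162 of the 197 seen in replicate 3 only.

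The members strong in replicate 2 differed in location from those strong in replicate 3. This comparison was chosen after the values were seen. Both groups were set by replicate ranks from the reads that also set the pooled ranks, and no member is in both. Each group is thus strong in 1 replicate and weaker in the other by the way it was chosen. The intervals treat peaks, not samples, as the unit, so they describe these lists only. Of the 238 members above the cut-off in replicate 2, 45.8% lay at promoters, against 30.9% of the 223 of replicate 3, a difference of 14.9 points (Newcombe interval 5.98 to 23.4). Introns held 32.8% and 49.8%. Of all pooled peaks, 17.5% lay at promoters and 43.8% in introns. On the X chromosome lay 10.9% and 21.1%, a difference of −10.2 points (−16.9 to −3.47). Mean GC content in the 200 bp around the summit was 40.6% ± 9.66 (SD, n = 238 peaks) and 36.1% ± 6.35 (SD, n = 223 peaks). The repeat GTGTGTGT, bound by the Polycomb recruiter Combgap, was found at 8.40% and 2.24% of these summits, a difference of 6.16 points (2.06 to 10.6). A MEF2 consensus, named for the muscle factor Mef2, was found at 5.46% and 10.8%, a difference of −5.30 points (−10.6 to −0.291), and that of the insulator protein Su(Hw) at 0 and 2.69%, −2.69 points (−5.74 to −0.539). All pooled summits held these 3 sequences at 4.41%, 7.15% and 0.517%, in that order. Of the 18 sequences compared in this way, the intervals of these 3 excluded 0 and those of the other 15 included it, with no adjustment for their number. With 1 library each, whether this is a property of the samples or of the libraries cannot be told apart.

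Promoters were a smaller part of the second tier than of the thresholded list and a larger part than of the third tier. A summit was called promoter when within 500 bp of an annotated transcription start, and otherwise took the class of the exon or intron it fell in. Of the members, 635 (27.1%, 25.3 to 28.9) lay at promoters, against 40.8% of thresholded peaks, 20.3% of the third tier and 17.5% of all pooled peaks. The difference was −13.7 points from the thresholded list (Newcombe interval −16.3 to −11.1) and 6.76 points from the third tier (4.35 to 9.17). From the list of replicate 3 alone these were −17.6 and 5.86 points, and from replicate 2 alone −12.7 and 9.60 points.

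Introns held 1036 members (44.2%), 4.92 points above the thresholded list (2.16 to 7.67) and near the 43.8% of all pooled peaks. The difference from the third tier was 0.845 points, with an interval from −1.97 to 3.66. Intergenic DNA held 586 members (25.0%), 7.46 points above the thresholded list (5.18 to 9.75) and −5.31 points relative to the third tier (−7.84 to −2.77), and 29.4% of all pooled peaks were intergenic. Coding exons held 25 members (1.07%), against 0.193% of thresholded peaks, 3.02% of the third tier and 4.96% of pooled peaks, and both intervals of the difference excluded 0. For the other exon classes the intervals of both differences included 0. They were 15 members in 5' UTRs (0.640%, pooled 0.803%), 23 in 3' UTRs (0.982%, pooled 2.48%) and 23 in non-coding exons (0.982%, pooled 1.07%).

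The shares changed gradually with rank and showed no step at the cut-off. In bins of 648 ranks, promoters made up 54.0% of the strongest bin. They made up 30.7% (27.3 to 34.4) of the bin ending at rank 2592 and 31.8% (28.3 to 35.5) of the bin after it. Over the bins at the ranks of the second tier the share went from 31.8% through 28.4% and 27.8% to 23.0%. The next bin had 26.5% and the one after that 19.0%. The bins hold all pooled peaks of their ranks, also those dropped near a thresholded summit, and the bin with 31.8% starts at the last thresholded peak.

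**Figure D2:**
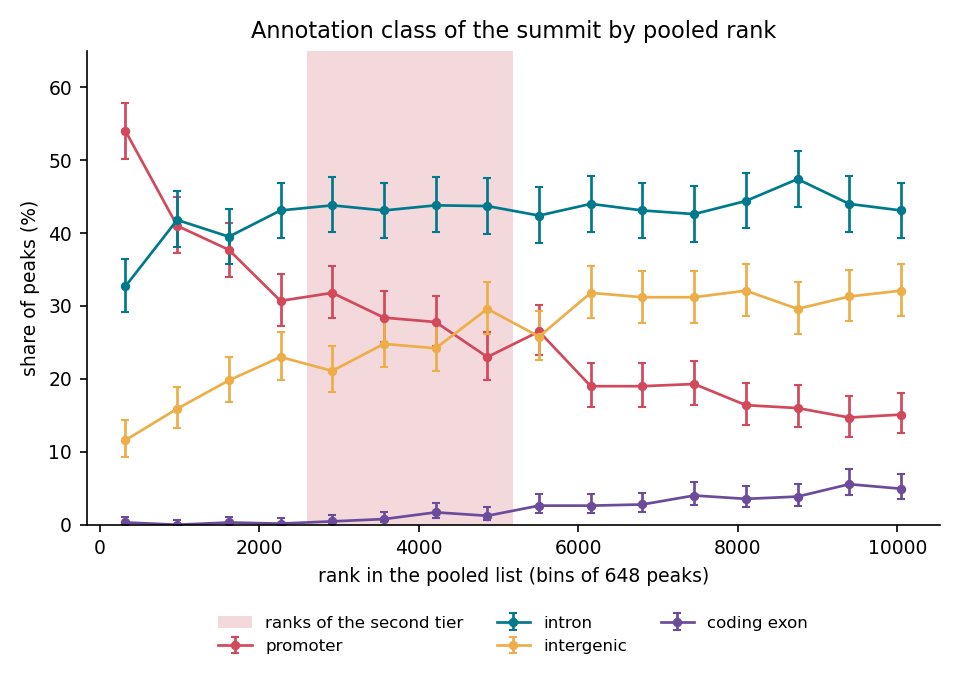
Share of pooled peaks (%) whose summit lay in each class, in bins of 648 ranks with Wilson 95% intervals, and the ranks of the second tier shaded. The promoter share falls from 54.0% in the first bin to 23.0% in the last bin of the shaded ranks, the intron share stays between 43.1% and 43.8% across the shaded bins, and the intergenic share goes from 21.1% to 29.6%.

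Second-tier promoter summits lay at or downstream of the start site more often than thresholded ones and less often than those of the third tier. The median position was −103 bp from the start, with quartiles at −232 and 46, against −134 in the thresholded list and −49 in the third tier. At or downstream of the start were 185 of the 635 (29.1%), 8.27 points more than in the thresholded list (4.01 to 12.6) and −13.2 points relative to the third tier (−18.8 to −7.59).

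The second tier was spread over all arms except Y, where 0 peaks were listed. Members per Mb were 20.2 on 2L, 15.4 on 2R, 18.0 on 3L, 17.8 on 3R, 14.1 on 4 and 16.3 on X. The density on X relative to the large autosomal arms was 0.914 (0.817 to 1.02). The ratio was 1.08 (0.980 to 1.20) in the thresholded list and 0.690 (0.610 to 0.777) in the third tier, whose interval did not overlap that of the second tier. The median member lay 11153 bp from the nearest thresholded summit. Within 5000 bp of one were 29.0% of the members, 2.76 points more than of the third tier (0.217 to 5.30). Another member lay within 1000 bp of 237 members.

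DNA at the summits was poorer in G and C than the DNA beside it. Mean GC content in the 200 bp around the summit was 38.2% ± 8.26 (SD, n = 2343 peaks) against 42.1% in windows centred 500 bp to either side. The difference was −3.91 points ± 11.2 (SD). GC content was lower at the summit than in the flanks for 1571 members (67.1%) and higher for 758 (two-sided exact sign test over peaks, p = 7.75e-65). Among all pooled peaks 52.5% were lower at the summit. The mean difference was −6.96 points in the thresholded list and −1.25 in the third tier.

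**Figure D3:**
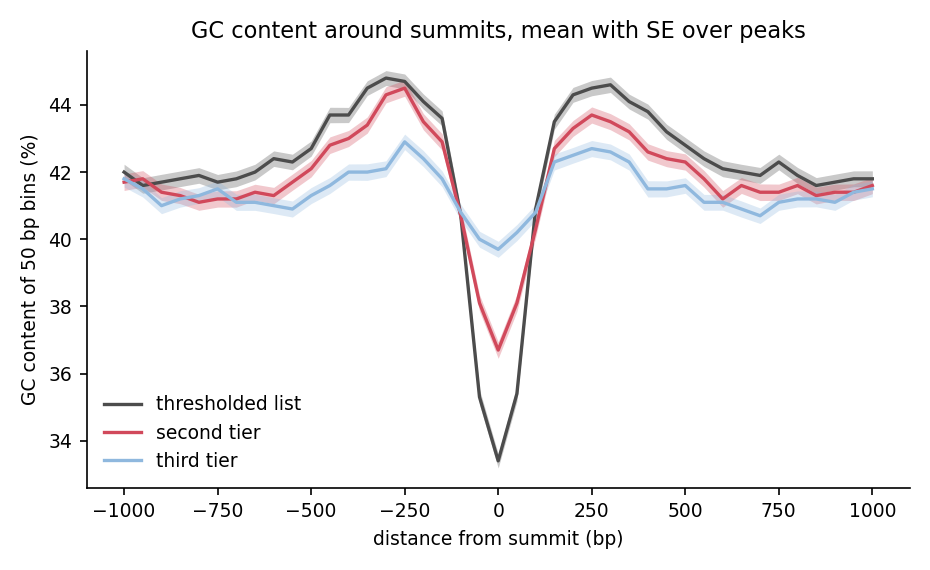
Mean GC content (%) of 50 bp bins by distance from the summit (bp), with bands of 1 SE over peaks, for the thresholded list, the second tier and the third tier. The central bin is at 33.4%, 36.7% and 39.7% in that order, and at 1000 bp the lines meet between 41.5% and 42.0%.

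Of 18 consensus sequences, 6 differed between the summits and the flanks of the members at an adjusted p under 0.05, with 4 found more often at the summit and 2 less often. The test was an exact paired test over peaks, with Benjamini-Hochberg adjustment over the 18. It compared the 200 bp around the summit with 200 bp centred 500 bp away. Unlike for GC content, this flank was taken on 1 side only, toward higher coordinates. Sequences were searched on both strands. TATCGATA showed the greatest ratio of the 6: the DRE was found at 28 member summits (1.2%) and 6 flanks, a ratio of 4.67 (adjusted p = 5.09e-04, exact), and at 0.630% of all pooled summits. Its share at the summit differed from that of the thresholded list by 0.115 points, with an interval from −0.486 to 0.738. From the third tier it differed by 0.449 points, with an interval from −0.116 to 1.04. The ratio was 2.15 in the thresholded list and 1.38 in the third tier. The share of flanks with the DRE was 0.256% for the members, 0.501% in the thresholded list and 0.539% in the third tier. Of the 28 members with it, 21 (75.0%) lay at promoters, against 26.5% of the other members, a difference of 48.5 points (30.0 to 60.9) that was looked for after the values were seen. The sequences of RpL27 and Dbct printed above are 2 of these promoters. With flanks 1000 bp away the ratio was 2.33 and the adjusted p 0.0568, and in the weaker part of the ranks the ratio was 2.67 with an adjusted p of 0.647.

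WGATAR was found at 840 member summits (35.9%) and 675 flanks, a ratio of 1.24 (adjusted p = 3.34e-06, exact), and at 30.6% of pooled summits. The A tract was found at 1005 summits (42.9%) and 822 flanks, a ratio of 1.22 (adjusted p = 6.75e-07, exact), and at 36.1% of pooled summits. The TATA box was found at 261 (11.1%) and 208, a ratio of 1.25 (adjusted p = 0.0396, exact), and at 9.30% of pooled summits, and its match can overlap an A tract. The call was lost at a like ratio with peaks ranked by q-value (1.25, adjusted p 0.0508), with flanks 1000 bp away (1.23, 0.0568) and in 100 bp windows (1.25, 0.176). In the weaker part of the ranks the ratio was 1.02 and the adjusted p 1.00. These 3 sequences and the DRE consist mostly of A and T, and GC content was lower at the summits, as given above. The part of base composition in their counts was not tested. In the thresholded list the ratios were 1.24 for WGATAR, 1.31 for the A tract and 2.06 for the TATA box, so none is particular to the second tier. In the third tier they were 1.06, 1.05 and 1.05. Matches are descriptions of letters and not binding sites.

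Less often at the summits were the G-rich sequence of Sp/KLF factors and that of Pho (Pleiohomeotic), which recruits Polycomb complexes. Sp/KLF matches were at 451 summits (19.2%) and 570 flanks, a ratio of 0.791 (adjusted p = 1.86e-04, exact), with 22.7% of pooled summits. Pho matches were at 172 summits (7.34%) and 230 flanks, a ratio of 0.748 (adjusted p = 0.0105, exact), with 9.57% of pooled summits. In the thresholded list the ratios of Sp/KLF and Pho were 0.632 and 0.812, and in the third tier 0.959 and 1.00. The part of the lower GC content at the summits in the counts of Sp/KLF and Pho was not tested. The Pho call was lost in the list of replicate 2 alone, where the ratio was 0.938 with an adjusted p of 0.709. It was also lost in the stronger and the weaker part of the ranks, each with fewer peaks, at ratios of 0.730 and 0.765 and adjusted p-values of 0.0829 and 0.208. With flanks 1000 bp away the ratio was 0.804 and the adjusted p 0.0663.

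The other 12 sequences did not pass. For the MEF2 consensus the ratio was 1.16 (adjusted p = 0.233, exact), while in the thresholded list it was 1.93. The share of members with it at the summit was 8.45%, which was −2.93 points relative to the thresholded list (−4.59 to −1.26) and 0.746 points relative to the third tier (−0.805 to 2.30). GTGTGTGT was found at 4.65% of member summits and 4.41% of pooled summits, and its ratio to the flanks was 0.813 (adjusted p = 0.207, exact). The share at member summits was 1.76 points above the thresholded list (0.699 to 2.85), where the ratio was 0.426. It was 0.385 points above the third tier, with an interval from −0.792 to 1.57. The remaining consensus sequences were those of Su(Hw), the GAGA repeat, homeodomain factors, the initiator, Snail, Zelda, AP-1, M1BP, Tango and Twist, with adjusted p-values from 0.124 to 0.920.

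A summit of the second tier lay in or within 1 kb of 1695 of the 18277 annotated genes, and 1146 of these (6.27% of all) had no thresholded summit. Of 13968 protein-coding genes, 1432 (10.3%) had a second-tier summit and 916 (6.56%) had only that. Long genes offer more room for a summit, so the lists below are given with the median length of their genes, against 2164 bp for all protein-coding genes. The 18 lists share some genes, with 406 distinct genes among 437 entries. A gene counted as reached need not own the nearest start site. Among the genes named below as reached by the second tier alone, the strongest peak of Ubx, gcm2, cad, run, C15, Nckx30C, eEF1beta, RpS23, RpLP0-like and RpLP1 lay nearer a start of another gene. The same held for jvl, whose strongest peak lay nearest a start of CG7362.

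Several patterning genes were reached by the second tier and not by the thresholded list. Of 25 segmentation genes with a median length of 3625 bp, 9 (36.0%) had only second-tier summits, against the 6.56% of all protein-coding genes, and 5 more had both kinds. The 9 were the homeobox genes en (engrailed), eve (even skipped), cad (caudal), gsb and gsb-n (gooseberry and gooseberry-neuro, which also hold a paired domain), the gap gene kni (knirps), the forkhead gene slp2, the Runt factor run, and the signal hh (hedgehog). The en peak, intergenic at −944, had the best pooled rank of these at 2735, with rank 2515 in replicate 2 and 4616 in replicate 3. The cad peak lay in an intron at pooled rank 3001, with replicate ranks of 2768 and 4253. At kni the promoter peak ranked 3155 in the pooled list and 1242 in replicate 2, with no replicate 3 summit within 100 bp. At slp2 it was the reverse, with rank 2271 in replicate 3 and no summit in replicate 2. Of the 9, en, cad, eve and gsb-n had a summit of their strongest member in both replicates.

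Of 10 Hox genes and cofactors, 3 (30.0%) had only second-tier summits. These were Abd-B, Ubx and pb, which set the identity of posterior, thoracic and mouthpart segments. The Abd-B peak, in an intron, was close to the cut-off everywhere, at pooled rank 2630 and ranks 2608 and 2717 in replicates 2 and 3. The Ubx peak had pooled rank 3086 and replicate ranks of 3870 and 3110, and the pb peak ranked 2923 in replicate 2 with no summit in replicate 3. The cofactor hth (homothorax) had 13 second-tier summits beside 5 thresholded ones. The median length in this list was 30563 bp.

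Of 19 eye and limb genes, 6 (31.6%) had only second-tier summits: eya (eyes absent), ato (atonal), so (sine oculis), sd (scalloped), C15 and al (aristaless). The promoter peak of ato, a proneural gene, at −26 had pooled rank 2850 and replicate ranks of 2379 and 4055. The peak counted for C15 ranked 2969 in the pooled list and 2452 and 2863 in the replicates, and lay at −171 from the start of lncRNA:CR44032, nearer than any start of C15. At eya, which encodes a phosphatase that acts with So, the promoter peak ranked 9082 in replicate 2 and 2574 in replicate 3. Both Pax6 genes, ey and toy, had a second-tier and a thresholded summit. The median length of the eye and limb genes was 19530 bp.

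Among signalling genes, 6 of 31 (19.4%) in the Wnt, Dpp and Hedgehog list had only second-tier summits. These were the receptors tkv, put and fz2, the secreted Wnt inhibitor Notum, and the ligands Wnt6 and hh. Of the ecdysone and JAK/STAT genes, 3 of 21 (14.3%) did, the nuclear receptor gene usp and the cytokine genes upd1 and upd3. The promoter peak of usp, which encodes the partner of the ecdysone receptor, ranked 2363 in replicate 3, and no summit lay within 100 bp in replicate 2. Of 26 tracheal genes 4 (15.4%) did, namely Abd-B, kni, fus and shg. Of 28 midline and glial genes 2 (7.14%) did, gcm2 and wrapper, while 13 more had both kinds of summit. Median lengths were 13588 bp in the Wnt, Dpp and Hedgehog list and 31127 bp in the ecdysone and JAK/STAT list. They were 23651 bp for the tracheal genes and 11868 bp for the midline and glial genes.

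In the other tissue lists the counts with only second-tier summits were 4 of 15 gut genes (26.7%), 4 of 16 haemocyte and fat body genes (25.0%), 4 of 18 genes of differentiated neurons (22.2%), 3 of 22 muscle genes (13.6%), 2 of 24 neural progenitor genes (8.33%) and 1 of 13 epidermis and cuticle genes (7.69%). The GATA factor genes srp (serpent) and pnr (pannier) were among the haemocyte genes. The srp peak had no replicate 2 summit and ranked 7151 in replicate 3, and the pnr promoter peak ranked 2193 and 15090. The neuronal genes were fne, Vmat, Nckx30C and VGlut, none of which had a thresholded summit, and their median length as a list was 27248 bp. Median lengths were 9177 bp for the gut list, 10809 bp for the haemocyte and fat body list and 20597 bp for the muscle list. They were 3595 bp for neural progenitor genes and 7039 bp for epidermis and cuticle genes. None of 12 germline genes had a summit of either kind. Of 34 Polycomb and Trithorax components 0 had only second-tier summits, since all 9 with a second-tier summit also had a thresholded one. Of 12 insulator protein genes 0 had a second-tier summit while 4 had a thresholded one. These lists are short. Of all protein-coding genes, 10.3% had a second-tier summit and 6.56% had only that. Whether the germline, Polycomb and Trithorax, and insulator counts fall below such shares was not tested.

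**Figure D4:**
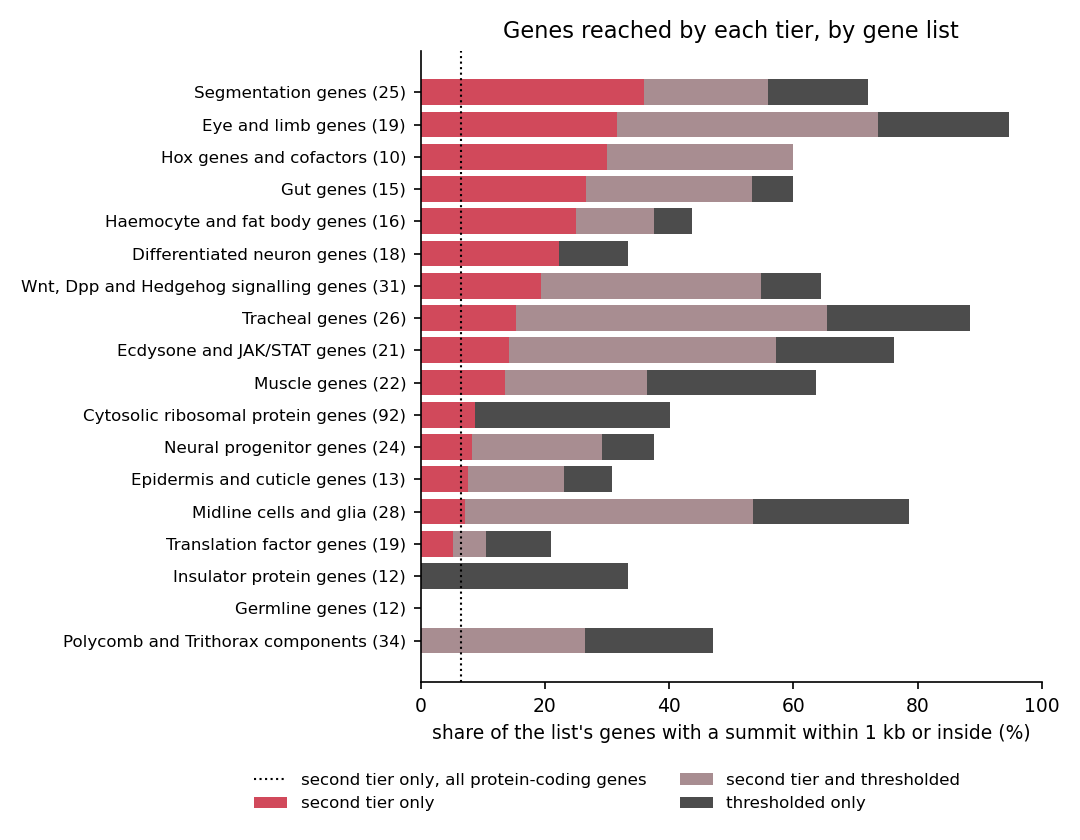
Share of each list's genes (%) with a summit in the gene or within 1 kb, split into second tier only, both, and thresholded only, with the number of genes in brackets. The dotted line marks the 6.56% of all protein-coding genes with only second-tier summits, and the segmentation list reaches 36.0%.

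Among the 92 genes listed as cytosolic ribosomal protein genes, short genes with a median length of 1315 bp, 8 (8.70%) had only second-tier summits. This is near the 6.56% of all protein-coding genes. A further 29 had a thresholded summit. Of the 9 member peaks there, 8 lay at promoters. Those at the genes' own start lay at −61 for RpL38, −52 for RpL27, −24 for RpS23, −5 for RpS29, 16 for RpS15Aa and 21 for RpL37A. The peaks counted for RpLP0-like and RpLP1 lay nearer the starts of 14-3-3zeta and CG13690, so they cannot be assigned to the ribosomal protein gene. The RpL38 peak ranked 2171 in replicate 2 and 3788 in replicate 3, and the RpL27 peak 1921 and 3438. The RpLP1 peak had no summit within 100 bp in either replicate. In the lists of replicate 3 alone and replicate 2 alone the count was 11 and 15. Of 19 translation factor genes 1 (5.26%) had only a second-tier summit, eEF1beta, and that peak lay nearer the start of CG6426, so it cannot be assigned to eEF1beta. The median length of the translation factor genes was 4098 bp.

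The gene with the most members in its span or within 1 kb was jing itself. Only 5 of its 21 members had a start of jing as their nearest, while 10 lay nearest a start of CG15233 and 6 nearest one of lncRNA:CR43905, and 2 lay within 1 kb of a jing start. In its span of 119787 bp, from 6502006 to 6621792 on 2R, lay 21 second-tier summits, 175 per Mb against 15.4 per Mb over 2R. The thresholded list had 7 summits in the span, at 58.4 per Mb, and another at −40 from its 5' end, and the third tier had 9. Of the 21 members, 18 lay in introns, 2 at promoters and 1 in a coding exon, and none lay in the 20000 bp on either side of the gene. A summit was found in both replicates for 15. The strongest, in an intron, had a pooled rank of 3017 and replicate ranks of 1584 and 10425. The next ranked 3180, with replicate ranks of 4093 and 3875. Of the 21, 13 ranked better in replicate 2 and 8 in replicate 3, where a member with a summit in only 1 replicate counted as better there. Above the cut-off ranked 3 in replicate 2 and 0 in replicate 3. The labels name an insertion targeting jing and not how many copies of its sequence the line carries, and the part of that in these peaks was not tested. In the lists of replicate 3 alone and replicate 2 alone the same ranks gave 15 and 17 summits at jing.

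**Figure D5:**
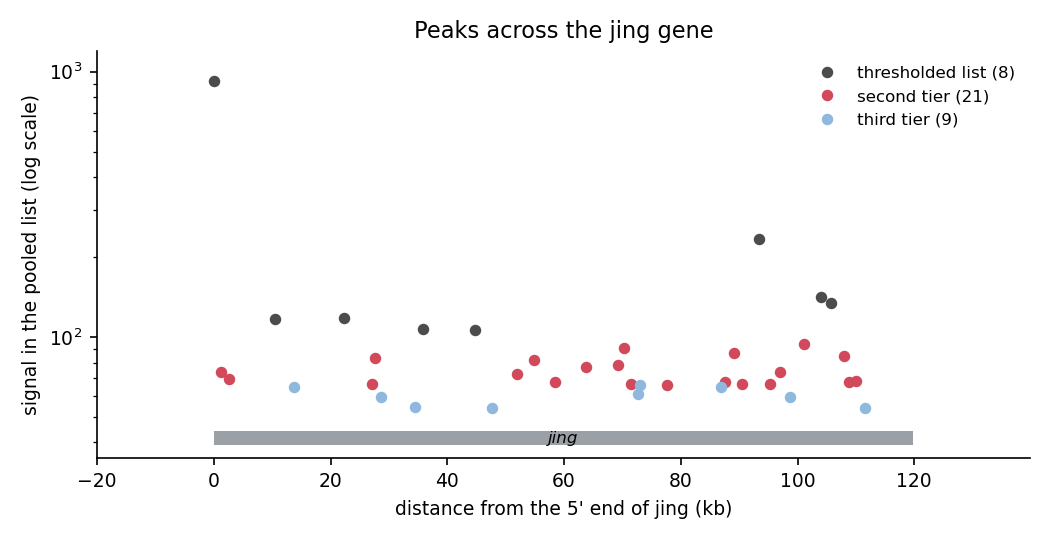
Pooled signal (log scale) of peaks across jing by distance from its 5' end (kb), for 8 thresholded, 21 second-tier and 9 third-tier summits, with the gene as a grey bar. The second-tier summits lie along the gene between 66.1 and 94.2, and the strongest thresholded summit, at 924, lies at −40 bp.

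After jing came hth with 13 members, kirre, an adhesion protein of myoblast fusion, with 12 in a span of 394149 bp, and Eip75B, Ptp61F, Sema1a and tun with 9 each. Sema1a, a semaphorin of axon guidance, and tun had only 1 thresholded summit each beside their 9. Among genes with no thresholded summit, fz2 (frizzled 2), a Wnt receptor, had 8 members, jvl had 7 and ham (hamlet), a zinc finger gene related to PRDM16, had 6 in 30033 bp. The strongest fz2 member, in an intron, had a pooled rank of 2668 and replicate ranks of 4639 and 2211. The strongest ham member, at 203 from a start, had a pooled rank of 2941 and replicate ranks of 3981 and 2617. In all, 45 genes had 5 or more members.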

How the data were processed

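Per the labels, chromatin of 2 biological replicates was sonicated to 200 to 800 bp. Per the file headers of the deposited readme text, dm6 alignments of the replicates and of their pool were compared with a control to call peaks, and the IDR step then gave the thresholded list. The sources used here name no caller or aligner; both are thus not given, and the control was not analysed here. The thresholded list was checked to hold the 2593 strongest pooled peaks; pooled ranks 2594 to 5186 define the second tier and 5187 to 7779 the third. The authors' deposited lists give each peak a signal of unstated scale, used only for ranks and description, and the −log10 of a q-value. The relaxed lists stop at 30000 peaks.

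Start sites (23697) came from Ensembl release 115 without transposable elements, and sequence from the RefSeq Release 6 assembly, whose arm lengths matched. Shares have Wilson intervals, differences Newcombe intervals, and densities exact Poisson or binomial intervals, all at 95%. With 1 group no test between samples was possible, so p-values are over peaks and measure only spread within the lists. The member rule, the 18 gene lists (3 names matched through older symbols, 5 unmatched) and the sequences were chosen with earlier results of these data known. Named are the 15 strongest members, those at each edge, up to 4 genes a list, members at jing, 5 strongest in each replicate alone and genes with most members; other genes were named after their values were seen. Steps were tested on simulated data. Software was scipy 1.17.1, numpy 2.4.6, pandas 2.3.3 and matplotlib 3.10.9 under Python 3.11.15.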

Additional observations from a re-analysis of the deposited data

How the results depend on the processing

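Over 18 alternatives, 173 values were recomputed, and 144 kept their direction and their side of the threshold, stayed within 1.5 times (counts) or within the Wilson interval of the reported share (shares). A further 19 moved beyond that, 10 lost a call and 0 turned. Without replicate 2 or 3 the promoter difference from the thresholded list ranged from −17.6 to −12.7 points and that from the third tier from 5.86 to 9.60. Under those settings the GC difference ranged from −3.99 to −3.14 points, the consensus sequences called from 7 to 10, and the genes reached only by the second tier from 1179 to 1326. In the stronger part of the ranks, 85.0% of members had a summit in both replicates, 47.9% ranked above the lowest second-tier rank in both, and 668 genes were reached only by them. In the weaker part these were 78.0%, 5.46% and 580 genes, with 3 consensus sequences called; fewer peaks enter each part by construction. With summits matched within 50 bp the shares were 59.2% and 18.9%, and within 200 bp 92.7% and 30.1%. Counting a jing summit only where jing has the nearest start site gave 5 members, and only within 1 kb of a start site 2. In 100 bp windows no flank held the DRE, so no ratio was formed. No paired analysis was possible because there is 1 group. Depth is unknown, the lists are cut at a fixed length, and peaks near each other are not independent.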
